A study of Mus musculus with 31 samples.

Results

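NIPBL and Rad21 were compared in unstimulated CH12F3 cells, a mouse B lymphoma line, by chromatin immunoprecipitation and sequencing (ChIP-seq). The 5 libraries compared were chosen by antibody, line and treatment as their titles give them: 2 NIPBL libraries and 3 Rad21 libraries, of 31 samples in all, 26 of which came with a peak list. All samples are labelled AID-deficient and C57BL/6, so both groups lack AID, the deaminase that starts class switch recombination. All 5 cultures were grown in RPMI1640 with serum and received no stimulus. Titles give the line as CH12F3NCdel, a name the labels do not expand, and no label says whether replicates were separate cultures. A p-value here therefore covers the spread among the 5 libraries, which may be technical. The cell type label of the Rad21 samples reads splenic mature B cells; their titles and source names say CH12F3 and were followed. The purpose of the study was to find what cohesin loop extrusion does in class switching at IgH, the immunoglobulin heavy chain locus.

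Cohesin is a ring-shaped complex that holds DNA and draws it into loops, and Rad21 is the subunit that closes the ring. NIPBL, which acts with MAU2, loads cohesin onto chromatin and stimulates its ATPase, and it is needed for loop extrusion. In mammalian cells cohesin is known to accumulate where the DNA-binding protein CTCF halts extrusion, whereas NIPBL ChIP signal is known mainly from active promoters and enhancers. In B cells such loops bring switch regions of the IgH locus together for recombination.

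The deposited data are lists of broad peaks in mm9, 1 list per library, with no read counts, so the depth of the libraries is unknown and list length and covered length are the description of size there is. The NIPBL lists held 1312124 peaks in replicate 1 and 1070630 in replicate 2, which covered 247 and 161 Mb. The Rad21 lists held 101404, 119444 and 191699 peaks, which covered 27.4, 27.0 and 42.8 Mb. Every NIPBL list was therefore longer than every Rad21 list, at 1191377 ± 170762 peaks for NIPBL (SD, n = 2) against 137516 ± 47783 for Rad21 (SD, n = 3). A two-sided exact permutation test over libraries gave p = 0.2, the smallest that 2 against 3 libraries allow. Adjusted over 18 such tests, of list size, width, fold enrichment, spacing, overlap and distance, this p was 0.3. None of these 18 tests could pass a threshold of 0.05. Peak names in the lists of NIPBL replicate 2 and all 3 Rad21 libraries give the same control, whereas those of NIPBL replicate 1 name none. Antibody and control are thus not matched throughout. Counts of called bins and of joint sites, peak overlaps and peak distances are given below without NIPBL replicate 1 or for each NIPBL library. The widths, ranks, distances, chromosomes and look-ups of the site classes were not worked out without it, nor were the IgH bins. To compare lists of such unequal length, the 20000 peaks with the highest -log10 p-value in each list were used, and these are called top peaks.

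Peak widths set the antibodies apart in shape more than in the median. The top NIPBL peaks had a median width of 664 bp in replicate 1 and 129 bp in replicate 2. The top Rad21 peaks had median widths of 397, 350 and 459 bp. The Rad21 libraries lay close together and between the NIPBL libraries, so the group means of 396 ± 378 bp for NIPBL (SD, n = 2) and 402 ± 54.7 bp for Rad21 (SD, n = 3) did not differ beyond the spread (exact permutation p = 1). With 10000 peaks a list the difference of the means, NIPBL minus Rad21, was 94.5 bp and with 20000 it was -5.5 bp, so its direction depends on the number of peaks taken.

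NIPBL peaks were found at both ends of the range of widths. Peaks of exactly 51 bp, the narrowest in these lists, made up 2208 (11.0%) of the top peaks of NIPBL replicate 1 and 8648 (43.2%) of those of NIPBL replicate 2. Among the top Rad21 peaks there were 3, 0 and 0 of them. Over all deposited peaks their shares were 45.9% and 47.7% for NIPBL and 12.5%, 19.7% and 29.6% for Rad21, so Rad21 lists hold them among weaker peaks. At the other end, 35.4% of the top peaks of NIPBL replicate 1 and 7.26% of those of replicate 2 were over 1000 bp wide. For Rad21 the shares were 4.08%, 2.40% and 6.71%, so among top peaks both NIPBL libraries had a higher share of such wide peaks than any Rad21 library. Over all deposited peaks the shares were 1.83% and 0.815% for NIPBL and 1.87%, 1.11% and 1.69% for Rad21, and at a -log10 q of 5 or more 9.63% and 1.98% for NIPBL and 3.81%, 2.52% and 6.02% for Rad21, so in both cases NIPBL replicate 2 was lowest. Between 53.9% and 55.6% of the top Rad21 peaks were 301 to 600 bp wide, against 13.3% and 5.51% of those of the NIPBL libraries. Median fold enrichment, the authors' own value for each peak in its list, was 7.94 and 10.1 for NIPBL and 11.4, 10.3 and 11.3 for Rad21.

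**Figure D1:**
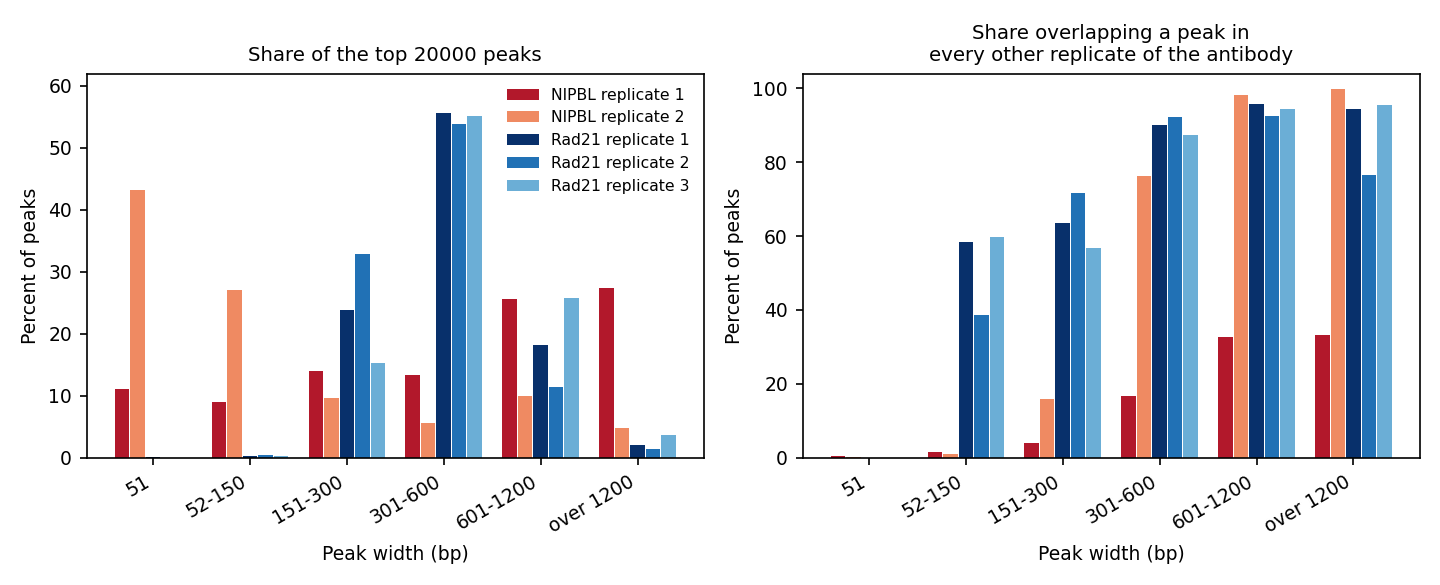
Top peaks of the 5 libraries by width in bp; the left panel gives the percent of the 20000 peaks of each library in each width class, and the right panel the percent of those peaks that overlap a top peak of every other replicate of the same antibody (1 other replicate for NIPBL, 2 for Rad21). In NIPBL replicate 2, 43.2% of peaks are 51 bp wide and 0.208% of these are found in replicate 1, whereas 99.7% of its peaks over 1200 bp are.

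How far replicates shared their peaks differed with the antibody and, for NIPBL, with width. Of the top peaks of NIPBL replicate 1, 20.3% overlapped a top peak of replicate 2 by at least 1 base, and 20.6% did so in the other direction. Between Rad21 replicates the overlap was 88.3% to 91.8% over the 6 ordered pairs. Of the 51-bp peaks of NIPBL replicate 2, 18 (0.208%) were found in replicate 1, against 1948 of its 1982 peaks of 601 to 1200 bp (98.3%) and 949 of its 952 wider peaks (99.7%). In NIPBL replicate 1 the peaks over 1200 bp numbered 5451, of which 33.1% were found in replicate 2. The wide peaks of NIPBL replicate 2 thus nearly all overlapped a top peak of replicate 1, of whatever width. The narrow peaks of the replicates mostly lay at different places. Top Rad21 peaks of 151 to 300 bp were found in both other Rad21 replicates at 63.5%, 71.7% and 56.7%, and those of 301 to 600 bp at 90.2%, 92.3% and 87.3%.

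A minority of loader and cohesin top peaks fell on each other, though a larger share than of the span. Midpoints of NIPBL peaks lay inside a Rad21 peak of any library at 9.87% in replicate 1 and 4.53% in replicate 2. Those Rad21 peaks cover 0.549% of the span. Rad21 midpoints lay inside a NIPBL peak of any library at 10.8%, 11.7% and 11.0%, beside 0.73% of the span. No test was made against the span. Of the top peaks of NIPBL replicate 1, 11.9%, 12.4% and 12.6% overlapped a top peak of Rad21 replicates 1, 2 and 3. For NIPBL replicate 2 the shares were 4.47%, 4.71% and 4.71%. Taken from the side of Rad21, 11.9% to 12.5% of top peaks lay on a peak of NIPBL replicate 1 and 4.42% to 4.66% on one of NIPBL replicate 2. The overlap with the other antibody was below the overlap between replicates of either antibody, and it followed which NIPBL library was taken rather than which Rad21 library. NIPBL peaks that were found in both NIPBL replicates lay on a Rad21 peak of any library at 21.3% in replicate 1 and 20.2% in replicate 2, against 12.6% and 1.72% of those found in 1 replicate only. Restricted to the peaks over 300 bp wide, with 20000 taken from each list, the mean share of NIPBL peaks on a Rad21 peak was 17.0%, against 8.46 ± 5.42% (SD over 2 libraries) of all top NIPBL peaks. The peaks found in both NIPBL replicates were also wider, with medians of 1118 against 454 bp in replicate 1 and 814 against 51 bp in replicate 2. A wider peak meets an overlap of 1 base more easily, and the part of width in these contrasts was not tested.

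**Figure D2:**
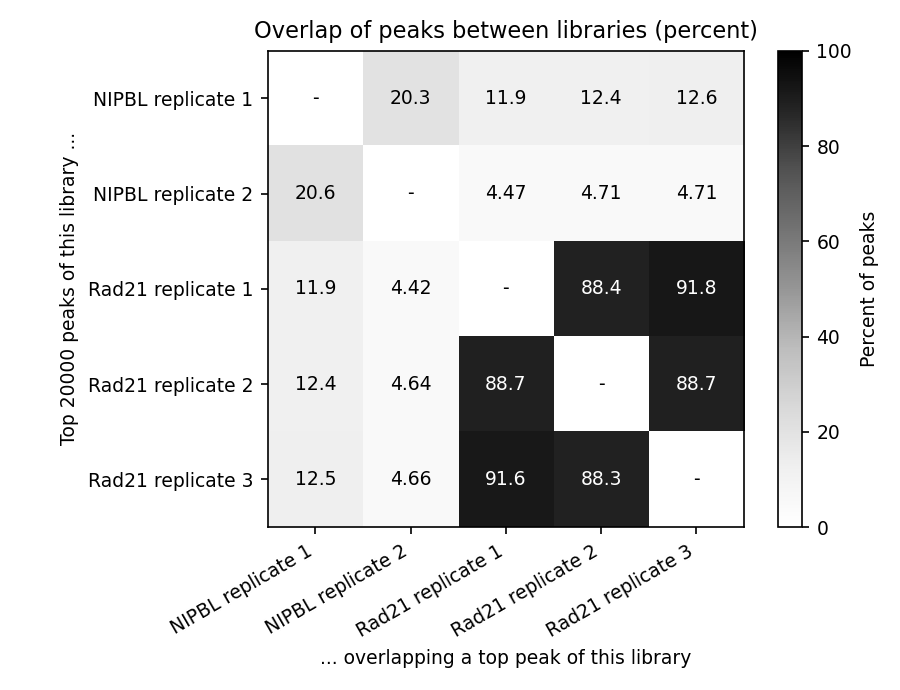
Percent of the top 20000 peaks of the library in each row that overlap a top peak of the library in each column by at least 1 base, with darker cells for higher shares. Rad21 replicates share 88.3% to 91.8% and NIPBL replicates 20.3% to 20.6%, and NIPBL peaks overlap Rad21 peaks at 4.47% to 12.6%.

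A larger share of NIPBL peaks lay near a Rad21 peak than of the chromosome span as a whole. The median distance from the midpoint of a top NIPBL peak to the nearest top Rad21 peak of any library was 14.4 kb in replicate 1 and 36.2 kb in replicate 2. From the midpoint of a top Rad21 peak to the nearest top NIPBL peak it was 12.8, 12.9 and 12.5 kb. Within 10 kb of a Rad21 peak lay 41.4% and 24.2% of NIPBL midpoints, beside 14.9% of the span of the chromosomes. Within 10 kb of a NIPBL peak lay 44.1%, 43.8% and 44.5% of Rad21 midpoints, beside 22.7% of the span. The share of the span is a description of how much of the genome is that close and no test was made against it. The NIPBL libraries differed from each other by more than the 3 Rad21 libraries did, and the exact permutation p for the median distance was 0.2 (adjusted 0.3). That test sets distances to the peaks of 3 Rad21 libraries against distances to the peaks of 2 NIPBL libraries. These targets take up unlike shares of the span, so the test does not compare like with like. The width of the NIPBL peaks went with their distance in both libraries. In NIPBL replicate 2 the 51-bp peaks lay a median of 67.3 kb from a Rad21 peak and those of 301 to 600 bp 10.3 kb, and in replicate 1 the values were 58.2 and 9.42 kb.

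**Figure D3:**
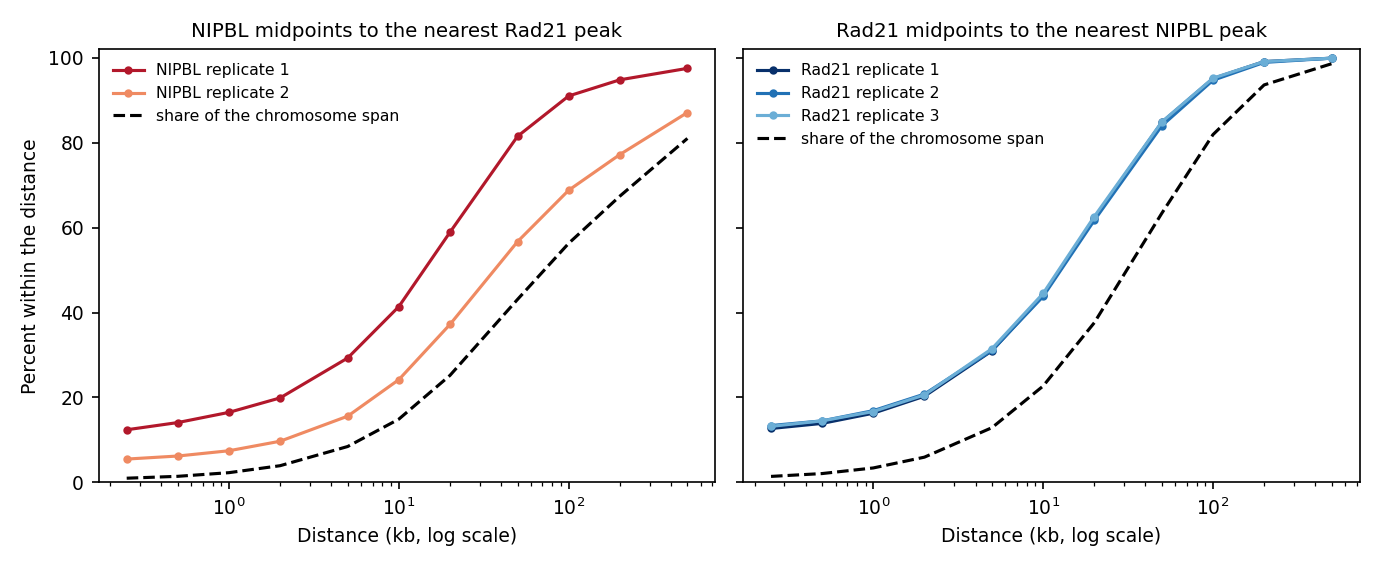
Percent of peak midpoints within a given distance of the nearest top peak of the other antibody (kb, log scale), for the 2 NIPBL libraries on the left and the 3 Rad21 libraries on the right, with the percent of the chromosome span within the same distance as a dashed line. At 10 kb the NIPBL curves stand at 41.4% and 24.2% and the span at 14.9%, and the Rad21 curves at 43.8% to 44.5% and the span at 22.7%.

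Top peaks of the 5 libraries that overlapped were then merged into 55800 sites. NIPBL sites with a peak in both NIPBL libraries numbered 4029 and Rad21 sites with a peak in all 3 Rad21 libraries numbered 16883. Joint sites, with a peak in all 5 libraries, numbered 646, which is 16.0% of those NIPBL sites and 3.83% of those Rad21 sites. NIPBL-only sites, with both NIPBL libraries and no Rad21 library, numbered 3174, and Rad21-only sites, with all 3 Rad21 libraries and no NIPBL library, numbered 14513. Peaks of 1 NIPBL library alone made 29536 sites (52.9%), whose median width was 136 bp. The classes were made from the lists themselves, so their sizes are a description.

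The count of joint sites depended on the NIPBL library and on the length of the lists. Of the Rad21 sites of all 3 libraries, 1514 had a peak of NIPBL replicate 1 only and 210 a peak of NIPBL replicate 2 only. Without NIPBL replicate 2 there were 2160 joint sites (10.8% of NIPBL sites and 12.8% of Rad21 sites), and without NIPBL replicate 1 there were 829 (4.15% and 4.90%). With 10000 and 40000 peaks per list the joint sites numbered 206 and 1739. Leaving out each Rad21 library gave 664 to 679.

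Joint sites were wide, and their Rad21 peaks were wider than those elsewhere. The median width was 1400 bp for joint, 1200 bp for NIPBL-only and 566 bp for Rad21-only sites. Since a joint site merges 5 or more peaks, the peaks themselves were also compared within each library. The NIPBL peaks of joint sites had a median width of 1033 bp in replicate 1 and 614 bp in replicate 2, against 1124 and 842 bp in NIPBL-only sites. The Rad21 peaks of joint sites had a median width of 577, 508 and 740 bp, against 412, 355 and 473 bp in Rad21-only sites. Rad21 peaks were thus wider at joint sites in 3 of 3 libraries and NIPBL peaks narrower in 2 of 2. The class asks for an overlap of 1 base, which a wider peak meets more easily, so the Rad21 widths are a description. In Rad21 replicate 1, 7.25% of top peaks of 151 to 300 bp lay on a NIPBL peak, against 47.1% of those over 1200 bp. Its 48 peaks of 52 to 150 bp stood at 68.8%.

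The rank of a peak in its own list by -log10 p-value served as a measure of strength, as a percentile in which a low value means a strong peak. The strongest NIPBL peak of a joint site had a median percentile of 17.0 in replicate 1 and 21.2 in replicate 2, against 12.5 and 29.4 at NIPBL-only sites, so the direction differed between the NIPBL libraries. The strongest Rad21 peak of a joint site had a median percentile of 37.7, 34.1 and 35.2, against 43.1, 43.6 and 43.5 at Rad21-only sites, and was stronger in 3 of 3 libraries. With 40000 peaks per list this last difference was close to 0, at 0.757 percentile points (joint minus Rad21-only) against -7.76 with 20000. Among the 4000 strongest peaks of the Rad21 libraries, 5.06%, 6.08% and 5.66% of the sites were joint. The share did not fall steadily with rank: over the 4 later blocks of 4000 ranks it lay between 2.83% and 4.62% in replicate 1, 2.78% and 3.55% in replicate 2, and 2.54% and 3.85% in replicate 3.

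Within joint sites the midpoints of the peaks of both antibodies mostly lay within 1000 bp of each other. This follows in part from the class, since the peaks of a site are joined by overlap. The midpoints of NIPBL and Rad21 peaks, each averaged over the libraries of the antibody, were a median of 197 bp apart. In 56.5% of joint sites they were within 250 bp and in 89.6% within 1000 bp, and the largest distance was 18419 bp. No share expected from overlap alone was computed, so these distances are a description. A Rad21 peak lay wholly inside the peak of NIPBL replicate 1 in 32.7% to 42.0% of joint sites, over the 3 Rad21 libraries, and inside the peak of NIPBL replicate 2 in 14.1% to 22.4%.

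Sites with a single antibody stood apart from each other on a scale of kb. NIPBL-only sites lay a median of 20.6 kb from the nearest Rad21 site of all 3 libraries. Within 1 kb of such a site lay 1.29% of them, beside 1.78% of the span, which follows in part from the class, since a site that touches a Rad21 peak is no NIPBL-only site. Within 10 kb lay 27.4% and within 100 kb 94.5%, beside 11.5% and 49.8% of the span. Rad21-only sites lay a median of 130 kb from the nearest NIPBL site of both libraries, and 7.01% lay within 10 kb, beside 3.11% of the span. These NIPBL sites number 4029, against 16883 Rad21 sites of all 3 libraries, so the medians of both classes are not on a par. To the nearest top peak of the other antibody in any library the median was 15.5 kb for NIPBL-only and 16.5 kb for Rad21-only sites.

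Sites classed by 1 antibody often held a weaker peak of the other in the full lists. Of the 3174 NIPBL-only sites, 69.7%, 73.0% and 85.1% overlapped some peak of the complete lists of Rad21 replicates 1, 2 and 3, and 57.2% overlapped a peak in all 3. Their midpoints lay inside such a peak at 21.8%, 23.5% and 35.3%, where the complete Rad21 lists cover 1.06%, 1.05% and 1.66% of the span. Of the 14513 Rad21-only sites, 72.4% and 63.0% overlapped some peak of the complete lists of NIPBL replicates 1 and 2. Their midpoints lay inside one at 40.2% and 27.7%, where the complete NIPBL lists cover 9.57% and 6.24% of the span. Some peak of any full list of the other antibody touched 92.7% of NIPBL-only and 81.8% of Rad21-only sites. Their midpoints lay inside one at 45.2% and 48.6%. The overlaps of whole sites have no matching share of the span beside them. "Only" here therefore means outside the top peaks, and many of these sites, though not all, had a weaker peak of the other antibody.

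The sites were then looked up in the 21 libraries that were not used to class them, again by top peaks. These are NIPBL (n = 2) and Rad21 (n = 4) from CH12F3 cells given anti-CD40, IL-4 and TGF-β for 24 h, Rad21 (n = 3) from cells labelled i3CBEs given the same for 24 h, and NIPBL (n = 6) and Rad21 (n = 6) from splenic B cells. Of these splenic libraries, 3 of each antibody came from cells given anti-CD40 and IL-4 for 48 h, with no TGF-β named in their labels, and 3 from unstimulated cells. Spleen and line thus differ in stimulus and time as well as in origin. Both classes kept their antibody in cells of other origin. NIPBL-only sites held a NIPBL peak in 87.4 ± 2.82% of cases in spleen (SD, n = 6 libraries) and in 65.5 ± 11.0% in stimulated CH12F3 (n = 2), and a Rad21 peak in 1.06 ± 0.366% in stimulated CH12F3 (n = 4). Rad21-only sites held a Rad21 peak in 93.6 ± 2.57% of cases in stimulated CH12F3 and i3CBEs (n = 7) and in 75.2 ± 6.76% in spleen (n = 6), and a NIPBL peak in 1.49% to 3.06% over the 8 other NIPBL libraries. Rad21 peaks at NIPBL-only sites were found at 3.56%, 1.76% and 1.39% in stimulated spleen, against 7.97%, 6.11% and 15.2% in unstimulated spleen, the highest shares of the 13 Rad21 libraries. Of the NIPBL-only sites, 1105 (34.8%) had a peak in all 8 other NIPBL libraries and in none of the 13 other Rad21 libraries. Of the Rad21-only sites, 6451 (44.4%) had a peak in all 13 other Rad21 libraries and in none of the 8 other NIPBL libraries.

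In spleen the share of joint sites with a peak stood above that of Rad21-only sites for Rad21 and below that of NIPBL-only sites for NIPBL, in every library, although neither difference passed 0.05 after adjustment. For Rad21 in spleen, 87.7 ± 3.19% of joint sites and 75.2 ± 6.76% of Rad21-only sites held a peak (SD, n = 6), and joint sites were higher in 6 of 6 libraries (two-sided exact permutation of signs, p = 0.0312, the smallest that 6 libraries allow, adjusted p = 0.0625 over 4 tests). The gap ranged over single libraries, from 3.19 points in stimulated replicate 2 to 24.7 points in unstimulated replicate 3. For NIPBL in spleen, 76.9 ± 4.08% of joint sites and 87.4 ± 2.82% of NIPBL-only sites held a peak, and joint sites were lower in 6 of 6 libraries (exact p = 0.0312, adjusted 0.0625). In stimulated CH12F3 and i3CBEs the share with a Rad21 peak was 93.8 ± 3.65% for joint and 93.6 ± 2.57% for Rad21-only sites (n = 7, exact p = 0.906). In stimulated CH12F3 the share with a NIPBL peak was 62.2% for joint and 65.5% for NIPBL-only sites (n = 2). Joint sites are wider and rank higher among Rad21 peaks, as given above, and the part of rank in these differences was not tested. With a window of 500 bp in place of the whole site the splenic Rad21 shares were 85.4% for joint and 75.1% for Rad21-only sites, higher in 6 of 6 libraries.

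**Figure D4:**
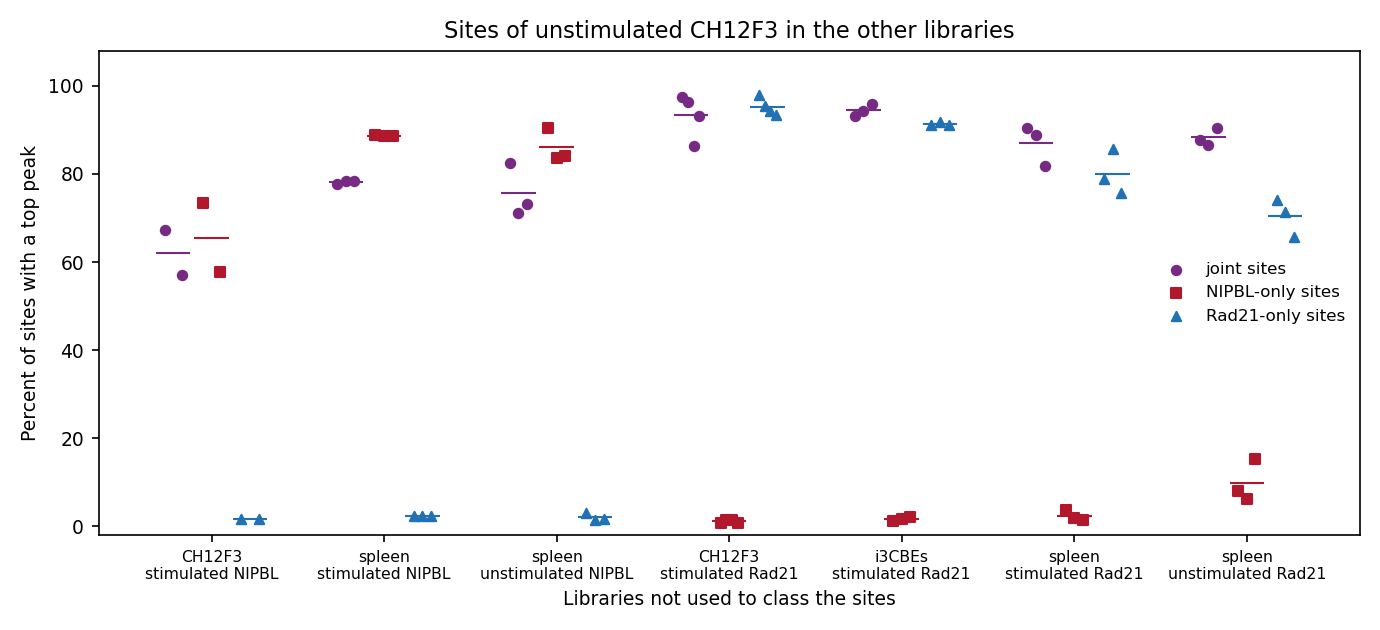
Percent of joint, NIPBL-only and Rad21-only sites of unstimulated CH12F3 that hold a top peak in each of the 21 other libraries, grouped by cells and antibody; points are libraries and lines are group means. NIPBL-only sites stand at 57.7% to 90.5% in NIPBL libraries and at 0.693% to 15.2% in Rad21 libraries, and Rad21-only sites at 65.7% to 98.0% in Rad21 libraries and at 1.49% to 3.06% in NIPBL libraries.

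The strongest joint sites were the same few places in every library. The first, at chr2:98506387-98507501, was rank 1 in all 5 libraries, with a fold enrichment of 15570 and 17622 for NIPBL and 37952, 43059 and 32622 for Rad21. The second, at chr12:3109703-3110130, was rank 2 in all 5, with 4425 and 8063 for NIPBL and 15204, 14878 and 11312 for Rad21. The 7 strongest joint sites held ranks 1 to 7 in every library and were present in all 21 other libraries, whatever the antibody. The seventh, at chr9:2999990-3038500, is a block of 38511 bp that every library called nearly whole. Enrichment of this size under both antibodies was seen at 10 sites with over 50-fold in all 5 libraries, and without these 636 joint sites remained. Regions prone to artefacts were not masked, and the reads behind these sites were not analysed here.

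The strongest NIPBL-only sites were grouped on a few chromosomes. Of the 10 with the best mean rank, 6 lay on chromosome 13 between chr13:21809368 and chr13:23854307. The first, at chr13:21841965-21842780, was rank 35 in NIPBL replicate 1 and rank 32 in replicate 2, with 55.5 and 38.7-fold enrichment, and had a peak in all 8 other NIPBL libraries and in 0 of 13 other Rad21 libraries. Another, at chr19:4988962-4989934, had ranks 48 and 34 and was likewise in 8 of 8 NIPBL and 0 of 13 Rad21 libraries. Neighbouring sites at chr6:47697722-47700506 and chr6:47701234-47704465 were 2785 and 3232 bp wide and had a Rad21 peak in 6 and 7 of the 13 other Rad21 libraries. By windows of 1 Mb, counted after the values were seen, NIPBL-only sites were densest from chr13:23000001 to chr13:24000000, with 28 sites beside 1 joint and 9 Rad21-only sites. Mouse chromosome 13 is known to carry the main cluster of replication-dependent histone genes, and whether these sites fall within it was not tested, since genes could not be placed in mm9 here.

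The widest NIPBL-only sites reached several kb. The widest, at chr8:73221361-73227663, spanned 6303 bp, and its strongest peaks were 3510 bp wide in replicate 1 and 5249 bp in replicate 2. Of the 5 widest, 4 lay on chromosome 8. At chr11:75464907-75471183 the width came from replicate 1, whose strongest peak was 6277 bp wide, against 189 bp in replicate 2.

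The 10 strongest Rad21-only sites lay on 6 chromosomes and were 495 to 1264 bp wide; the 10 strongest NIPBL-only sites lay on 4 chromosomes and were 481 to 3232 bp wide. The first, at chr16:91512434-91513697, had ranks 39, 22 and 30 and 36.9, 42.4 and 40.3-fold enrichment in the Rad21 libraries. The second, at chr10:61645663-61646248, had ranks 24, 34 and 39, and the third, at chr11:44399557-44400051, had ranks 33, 25 and 43. All 10 of the strongest had a Rad21 peak in 13 of 13 other Rad21 libraries, and 8 of them had no peak in any other NIPBL library.

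Sites of the 3 classes were spread unevenly over chromosomes. Chromosome 11 had the most joint sites (72, or 60.6 per 100 Mb), the most NIPBL-only sites (326, or 274 per 100 Mb) and 1074 Rad21-only sites (904 per 100 Mb). On the X chromosome there were 5 joint, 12 NIPBL-only and 288 Rad21-only sites, or 3.06, 7.33 and 176 per 100 Mb. By sites per 100 Mb, chromosome 11 was highest and X lowest among the autosomes and X for each of the 3 classes. The share of top peaks on the X was 1.20% and 2.28% for NIPBL and 1.97%, 2.25% and 1.93% for Rad21, where the X makes up 6.34% of the span. On 10 of the 21 chromosomes the shares of the NIPBL and Rad21 libraries did not overlap. The exact permutation p was 0.2 for each of these, the smallest possible (adjusted 0.42). The shares of a library depend on each other across chromosomes, so this count is a description.

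To place differences along the genome, the percent of each 10 kb bin covered by top peaks was compared between NIPBL and Rad21 with limma. Of 23071 bins covered in at least 2 libraries, NIPBL was higher in 3209 (13.9%) and Rad21 higher in 11895 (51.6%), at a Benjamini-Hochberg adjusted p under 0.05. The libraries of both antibodies did not overlap in any of the 15104 called bins, as in 76.1% of all bins tested. In 2801 of the bins with NIPBL higher no Rad21 library had a top peak, and in 10495 of those with Rad21 higher no NIPBL library had one. Such bins entered the test only through the antibody that covers them and so had to differ in that direction, and their calls are a description and no support for a difference. The called differences, NIPBL minus Rad21, had a median of 9.15 percentage points where NIPBL was higher and -4.29 points where Rad21 was higher. The 1361 bins covered in all 5 libraries included 209 with NIPBL higher and 90 with Rad21 higher.

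These counts rest on how many peaks were taken and on the NIPBL replicates. Without NIPBL replicate 1, which leaves libraries that share a control, 323 bins were called with NIPBL higher and 7647 with Rad21 higher, and without NIPBL replicate 2 there were 1908 and 7982. Of the 3209 bins with NIPBL higher, the 2801 without a Rad21 top peak could not enter these fits. With 1 NIPBL library left they are covered in 1 library alone, and the filter asks for at least 2. The drop in calls with NIPBL higher thus follows in part from the filter. With the top peaks over 300 bp wide the counts were 7268 with NIPBL higher and 6739 with Rad21 higher, and with all deposited peaks they were 160751 and 714. Which antibody had more called bins therefore follows from the choice of peaks. With all deposited peaks, 3965 of the 11895 bins with Rad21 higher were called in the opposite direction, and 668 at a -log10 q of 5 or more. For the 3209 bins with NIPBL higher these numbers were 6 and 0, and with 40000 top peaks 8 of the 3209 and 3 of the 11895 turned round.

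The largest differences with NIPBL higher lay in adjacent bins on chromosome 6. None of the 10 largest kept its call under every setting tried. The 9 without a Rad21 top peak entered the test only through NIPBL, so their calls and the loss of them are a description. All 10 lost the call without Rad21 replicate 1 and without Rad21 replicate 3, while the difference at chr6:47690001 stayed at 69.0 points in both fits. Without either NIPBL replicate only 1 of the 10 could be tested. In the bin starting at chr6:47690001 NIPBL covered 77.5% and 60.5%, and Rad21 0% in all 3 libraries, a difference of 69.0 points. With 40000 peaks per list 6 of the 10 were still called, and this difference was 29.8 points and was not called (limma adjusted p = 0.0808). The next bin, starting at chr6:47700001, had 77.7% and 58.1% for NIPBL and 0% for Rad21. All 5 bins from chr6:47680001 to chr6:47730000 were called, with a mean of 47.4% for NIPBL and 0.215% for Rad21, as were 4 bins from chr6:47600001 to chr6:47640000, with 53.9% and 0.673%. The longest run of called bins with NIPBL higher was 6 bins from chr13:23620001 to chr13:23680000, where NIPBL covered 22.8% and 21.4% and Rad21 0%. Other bins among the 10 largest were those starting at chr8:73220001 (70.4% and 52.5% for NIPBL, 0% for Rad21), chr10:7230001 (59.5% and 56.1% for NIPBL, 0% for Rad21) and chr17:34250001 (51.2% and 50.5% for NIPBL, 0% for Rad21). At chr10:7230001 the difference of 57.8 points was 9.91 with 40000 peaks, 9.81 with all deposited peaks and 30.1 at a -log10 q of 5 or more, and it was called in none of these (limma adjusted p = 0.348, 0.0713 and 0.107). In 9 of these 10 bins no Rad21 library had a top peak. At the remaining bin, starting at chr8:87500001, NIPBL covered 77.0% and 43.8% and Rad21 0.110%, 7.86% and 0%.

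Among the 10 largest differences with Rad21 higher, 6 lay in bins where NIPBL had no top peak. None of the 10 kept its call under every setting tried. The 6 without a NIPBL top peak entered the test only through Rad21, so their calls are a description. The bin starting at chr1:85100001 had 68.3% and 37.4% for NIPBL and was covered almost whole by Rad21, at 95.2%, 96.0% and 96.4% (difference -43.0 points, SE 9.52, limma adjusted p = 0.0171). The bin starting at chr1:85310001 had 11.9% and 2.81% for NIPBL and 65.2%, 64.1% and 64.8% for Rad21 (difference -57.4 points, adjusted p = 0.0203). With 10000 peaks per list the sign at chr1:85100001 was the opposite, at 10.9 points, and the difference at chr1:85310001 was -40.6 points (limma adjusted p = 0.199) and at equal covered length -19.0 points (0.475). The call at chr1:85100001 was lost without each Rad21 library (limma adjusted p = 0.0543, 0.056 and 0.0569), and that at chr1:85310001 without Rad21 replicate 1 or 3 (0.0773 and 0.0919). NIPBL had partial coverage in 2 further bins, with 2.90% and 0% at chr8:19930001 against 35.0%, 45.6% and 28.4% for Rad21, and 4.43% and 3.30% at chr6:114870001 against 26.6% to 31.4% for Rad21. In the other bins NIPBL was at 0% in both libraries. At chr15:62630001 Rad21 covered 33.3%, 41.5% and 44.0%, at chr1:24620001 30.1% in all 3 libraries, and at chr2:78800001 25.4%, 29.2% and 28.6%. The bin starting at chrX:47950001 was on the X chromosome, with 0% for NIPBL and 25.6%, 24.7% and 26.0% for Rad21, and its difference of -25.4 points was -8.33 with 10000 peaks and -1.96 with all deposited peaks (limma adjusted p = 0.347 and 0.737). The longest runs of called bins with Rad21 higher were 4 bins.

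The study's own locus, IgH, was described over 40 bins of a 400 kb region of chromosome 12, taken from background knowledge of where the constant genes lie in mm9 and not from an annotation. Of the 8 bins that could be tested, NIPBL was higher in 2 and Rad21 in 2, beside 13.9% and 51.6% of all bins tested. In all 4 the other antibody was at 0% in every library, so each bin entered the test only through the antibody that covers it and its values are given with no p. NIPBL covered 10.1% and 9.98% of the bin starting at chr12:114470001, and Rad21 0% in all 3 libraries. In the bin starting at chr12:114490001 NIPBL covered 12.3% and 13.1%, and Rad21 0%. Rad21 was higher in the bins starting at chr12:114340001, at 4.51%, 4.13% and 3.47%, and chr12:114380001, at 3.19%, 3.17% and 3.04%, and NIPBL had 0% in both libraries at each. At 40000 peaks per list 3 bins were called with NIPBL higher and 2 with Rad21 higher, and with all deposited peaks 36 of 38 tested bins had NIPBL higher and 0 had Rad21 higher.

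The strongest cohesin signal of the region lay in a pair of neighbouring bins, where loader coverage differed between the NIPBL libraries. In the bin starting at chr12:114450001 Rad21 covered 27.0%, 24.3% and 22.1%, and NIPBL 17.0% and 4.12% (limma adjusted p = 0.185). In the bin starting at chr12:114460001 NIPBL covered 52.0% in replicate 1 and 0% in replicate 2, and Rad21 17.5%, 17.2% and 17.3% (limma adjusted p = 0.688). The Rad21 site at chr12:114460072-114463488 ranked 2903, 2453 and 1265 in the Rad21 libraries, the strongest of the region, and had a peak of NIPBL replicate 1 at rank 9797 and none of replicate 2. It held a Rad21 peak in 13 of 13 other Rad21 libraries and a NIPBL peak in 7 of 8 other NIPBL libraries. The next Rad21 site, at chr12:114458121-114459108, ranked 3032, 4184 and 2614 and had no NIPBL top peak in either library or in any of the 8 others. Between them lay the only joint site of the region, at chr12:114459342-114459955, with NIPBL ranks of 4872 and 2418 and Rad21 ranks of 19371, 11672 and 19159, so there NIPBL was strong in its list and Rad21 weak.

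NIPBL-only sites of the region lay to the right of these. One at chr12:114468969-114471011 ranked 4964 and 6763 in the NIPBL lists and was found in 4 of 8 other NIPBL libraries, which were 3 of 3 from stimulated spleen and 1 of 2 from stimulated CH12F3. The other, at chr12:114491659-114493082, ranked 1381 and 10362 and was found in 2 of 2 NIPBL libraries of stimulated CH12F3 and in 0 of 6 of spleen. Neither had a Rad21 top peak in any of the 13 other Rad21 libraries. From the bin starting at chr12:114510001 to the right edge of the region, the 5 libraries held a single top peak, of NIPBL replicate 1, at chr12:114664691-114665304.

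**Figure D5:**
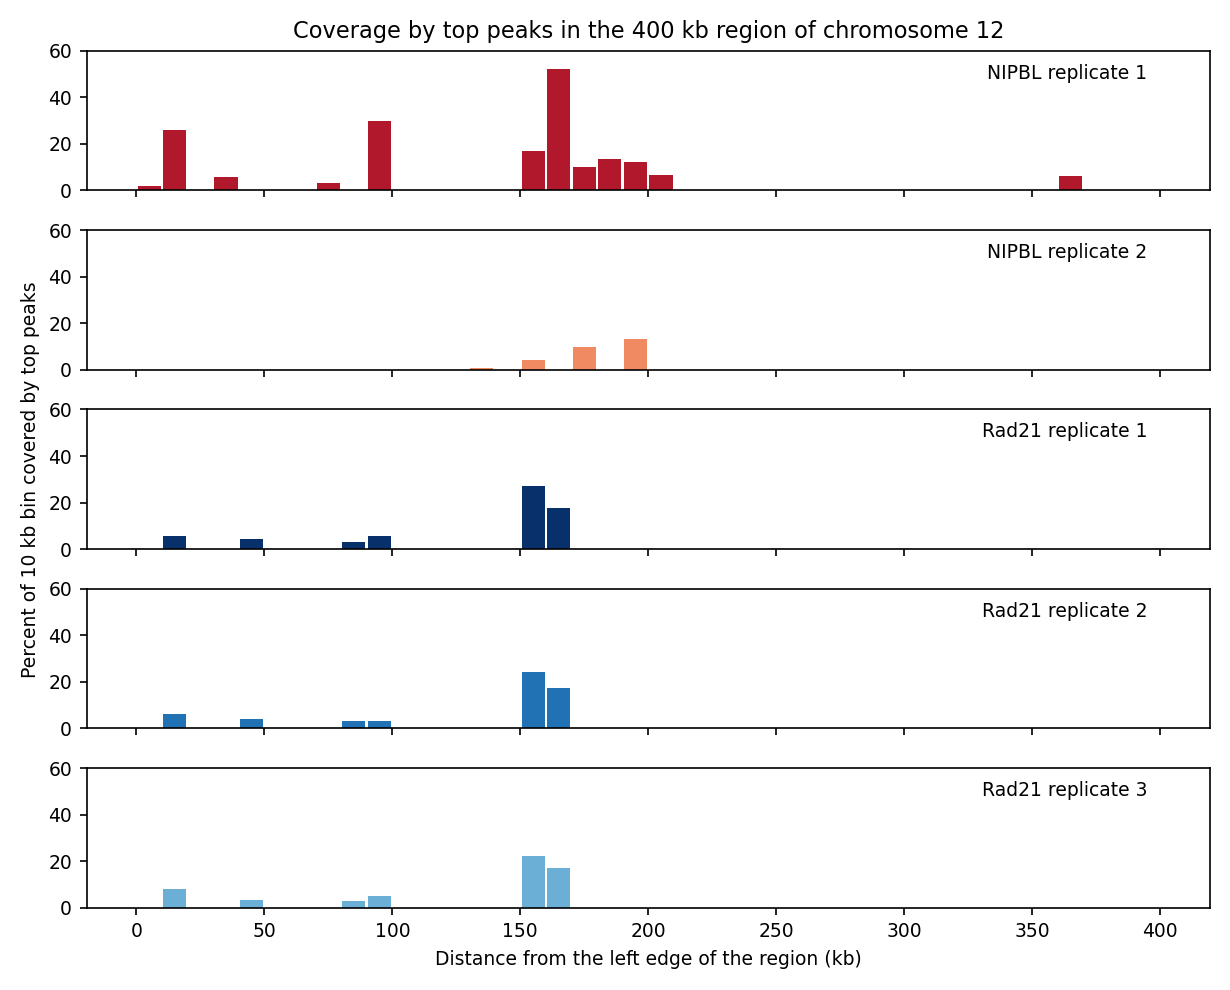
Percent of each 10 kb bin covered by top peaks in each of the 5 libraries (NIPBL above, Rad21 below), against the distance in kb from the left edge of the 400 kb region of chromosome 12 that holds the IgH constant genes. Rad21 coverage peaks in a pair of neighbouring bins at 22.1% to 27.0% and 17.2% to 17.5%, and in the bins starting at chr12:114470001 and chr12:114490001 both NIPBL libraries have coverage and no Rad21 library has.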

How the data were processed

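Peak lists from NIPBL and Rad21 ChIP-seq of unstimulated CH12F3 were used, 1 per library and not pooled. Bowtie2, MACS2 and the build mm9 are named in the submitters' processing notes, with versions not given in the sources used here. For each peak the authors deposited a score, 10 times the -log10 q-value, a fold enrichment (ratio), and the -log10 p-value and q-value. The p-value was used only to rank peaks within a list. Median fold enrichment was compared between libraries, and a common cut of q-value and one of fold were applied across lists. Peak names of NIPBL replicate 1 give no control, so its fold and q-values may not be comparable with those of the other lists. No read counts come with the lists, so no intervals from counts could be given.

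The top 20000 peaks per list by -log10 p (ties by fold, then position) on the 21 main chromosomes were kept. Overlap meant 1 shared base. The percent of each 10 kb bin covered was tested with limma (version 3.58.1, under R 4.3.3, with a trend of the variance on the mean) over bins covered in 2 or more of the 5 libraries, with Benjamini-Hochberg adjustment. Values per library were compared by two-sided exact permutation tests. Scripts ran under Python 3.11.15 with scipy 1.17.1, pandas 2.3.3, numpy 2.4.6, statsmodels 0.14.6 and matplotlib 3.10.9.

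Groups and replicate numbers came from the titles. Named bins come from the 10 called bins per direction that differ most and have non-overlapping groups; named sites are from the 10 best-ranked of each class, the 5 widest joint and NIPBL-only sites, and the IgH region. The libraries, classes, lists and rules were chosen with earlier results of these data known. Alternatives were other numbers of peaks, all peaks, a -log10 q of 5 or more, equal covered length, other bins and filters, and leaving out each library. Genes and sequences at sites were not analysed here, since the tables at hand are of another build.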

Additional observations from a re-analysis of the deposited data

How the results depend on the processing

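Counts of shared sites and of called bins moved with how many peaks a list gave. The cause of these moves was not tested beyond the settings named. Depth is unknown, so no limit from counting could be set. Bins with NIPBL higher and with Rad21 higher numbered 2202 and 6547 with 10000 peaks per list, 4525 and 15195 with 40000, 2552 and 6580 at equal covered length, 160751 and 714 with all deposited peaks and 40136 and 4321 at a -log10 q of 5 or more. They numbered 1822 and 5886 in bins of 50 kb, and 415 and 12422 among bins covered in 3 or more libraries, a filter that no bin covered by NIPBL alone can pass. The log2 scale, bins of 5 kb and a joint fit of all CH12F3 groups kept both counts within 1.5 times. Leaving out each replicate gave 323 to 2635 with NIPBL higher and 7647 to 12551 with Rad21 higher; where this leaves 1 NIPBL library, that library is assumed to vary like the Rad21 libraries. With the top peaks over 300 bp wide, an alternative chosen after seeing the data, there were 7268 and 6739.

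Joint sites numbered 206 with 10000 peaks (7.94% of NIPBL sites, 2.55% of Rad21 sites), 1739 with 40000 (27.6%, 6.21%), 29431 with all peaks (8.26%, 56.0%), 4682 at a -log10 q of 5 or more (13.3%, 22.0%), 177 at equal covered length (6.40%, 2.33%), 804 with peaks within 1 kb merged (19.1%, 4.85%) and 1557 with peaks over 300 bp wide (15.3%, 12.9%). Leaving out each replicate gave 664 to 2160 joint sites, 4.15% to 16.8% of NIPBL sites and 3.65% to 12.8% of Rad21 sites.

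The mean share of NIPBL peaks on a Rad21 peak was 17.0% for peaks over 300 bp wide and stayed within 1 SD of 8.46% otherwise (4.10% to 12.3%). That of Rad21 peaks on a NIPBL peak, 8.42%, was 5.60% with 10000 peaks, 11.4% with 40000, 40.9% with all, 30.4% at a -log10 q of 5 or more, 4.41% at equal covered length, 17.0% for peaks over 300 bp wide, 7.86% when a larger overlap, 50% of the narrower peak, was asked for, and 4.57% to 12.3% without each replicate. NIPBL midpoints within 10 kb of a Rad21 peak, 32.8% on average, beside 14.9% of the span, were 21.0% with 10000 peaks (8.46% of the span), 21.0% at equal covered length (8.69%), 50.9% with 40000 (28.0%), 73.5% with all (61.5%) and 56.9% for peaks over 300 bp wide (17.0%).

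With all deposited peaks 3965 of the 11895 bins with Rad21 higher, and at a -log10 q of 5 or more 668, were called in the opposite direction. Median width, NIPBL minus Rad21, was 94.5 bp with 10000 peaks. The median rank of Rad21 peaks, joint minus Rad21-only, was -15.3 points with 10000 peaks and 0.757 with 40000. The share of sites with a Rad21 peak in stimulated CH12F3 and i3CBEs, joint minus Rad21-only, was 0.246 points, and -0.907 with 10000 peaks, -0.881 with 40000 and -2.27 in a 500 bp window chosen after seeing the data (adjusted exact permutation p = 0.0625). That with a NIPBL peak in stimulated CH12F3, joint minus NIPBL-only, was 5.90 points with 40000 peaks. With 40000 peaks the splenic Rad21 difference was higher in 4 of 6 libraries, at 9.37 points (exact permutation p = 0.125). The bin starting at chr1:85100001 was 10.9 points with 10000 peaks and 10.9 at equal covered length, and that at chr15:63940001 was 5.25 with all peaks. None of the 20 named bins stayed past the threshold under every setting; 82 of 112 values did for NIPBL higher and 105 of 137 for Rad21 higher. Chromosomes whose groups do not overlap numbered 5 with 10000 peaks. In the IgH region 1 bin was called in each direction with 10000 peaks, and 36 with NIPBL higher and 0 with Rad21 higher with all. No paired analysis was possible because the NIPBL and Rad21 libraries share only 1 replicate number, 2, and the title of the other NIPBL library has none.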

Other observations

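In the IgH region, a NIPBL site of replicate 1 alone at chr12:114482492-114483831, 1340 bp wide, had a peak in 5 of 8 other NIPBL libraries, which were 3 of 3 from stimulated spleen and 2 of 3 from unstimulated spleen, and in 1 of 13 other Rad21 libraries. At chr12:114466130-114466981 another site of NIPBL replicate 1 alone had a peak in 7 of 8 other NIPBL libraries and in 2 of 13 other Rad21 libraries. Sites seen in a single NIPBL library and with no Rad21 library were, over the whole genome, found in 15.9 ± 0.345% of cases by NIPBL libraries of stimulated spleen (SD, n = 3), 15.1 ± 2.12% by those of unstimulated spleen (n = 3) and 5.43 ± 2.09% by those of stimulated CH12F3 (n = 2).

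Top NIPBL peaks lay on top Rad21 peaks at 8.46 ± 5.42% in unstimulated CH12F3 (SD over 2 NIPBL libraries), against 4.74 ± 0.713% in stimulated CH12F3 (n = 2; exact permutation p = 0.667) and 14.0 ± 2.57% in unstimulated spleen (n = 3; exact permutation p = 0.2, the smallest possible). In stimulated spleen the shares were 8.36%, 8.40% and 8.63%, which was not tested. Libraries this few cannot reach 0.05 in either comparison. Of the 646 joint sites, 164 (25.4%) had a top peak in all 21 other libraries, and 28 (4.33%) had none in any of the 8 other NIPBL libraries.

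By windows of 1 Mb, joint sites were densest from chr1:85000001 to chr1:86000000 and from chr17:35000001 to chr17:36000000, with 7 sites in each, beside 5 and 6 NIPBL-only sites and 1 and 17 Rad21-only sites. Rad21-only sites were densest from chr7:31000001 to chr7:32000000, with 26 sites beside 0 joint and 6 NIPBL-only sites. These windows were picked after their values were seen. In the first of them the widest joint sites after chromosomes 3 and 9 were also found, at chr1:85234072-85263593 and chr1:85265540-85294464, where the strongest NIPBL peaks were 1466 and 953 bp wide in replicate 1 and 260 and 1186 bp in replicate 2, and the strongest Rad21 peaks of replicate 2 were 25640 and 24833 bp wide.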
